A study of Homo sapiens with 2 samples.

Results

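The genes of the proteasome and of the enzymes that attach and remove ubiquitin were described in RNA-seq data from HAL-01, an established human cell line whose labels give it as a pre-B acute lymphoblastic leukaemia. They were chosen by name only: protein-coding genes with symbols beginning PSMA to PSME, UBE2 (with 1 gene left out, not analysed here), FBXO, FBXL or FBXW, or with USP or CUL followed by a digit. In all, 91 of the 16145 genes listed in either library met this rule, out of 229 such genes in GENCODE 29, and the others were not analysed here. The 2 libraries were 1 Control and 1 AG library. For the library labelled AG, cells were kept for 24 h with 1,5-AG at 0.8 mM (1,5-anhydroglucitol, an analogue of glucose). In the sources used here, the handling of the Control culture is not given. With 1 library per group no test between conditions was possible, and no difference below has a replicate check.

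Ubiquitin is activated by an E1 enzyme, passed to a conjugating (E2) enzyme and joined to a substrate with the help of a ligase (E3), and deubiquitinases of the USP family remove it again. In the cullin ligases a cullin is the scaffold, and in some of them, not all, an F-box protein is the adaptor that holds the substrate. The proteasome that degrades tagged proteins has a barrel-shaped core of alpha and beta subunits and a regulatory particle, in which an ATPase ring unfolds the substrate and non-ATPase subunits hold the ubiquitin receptors and the lid. Blood cancer cells that make much protein are known to depend on it, and drugs that block its beta subunits are used against plasma cell myeloma.

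Proteasome subunit genes are known to be induced together by the transcription factors NFE2L1 and NFE2L2, which bind antioxidant response elements, and their promoters often carry CCAAT boxes. For this reason 3 promoter windows are shown. PSMB3 encodes a core beta subunit and was the least abundant expressed subunit, PSMC3 encodes an ATPase and was the second most abundant, and PSME3 encodes a nuclear activator and was among the subunits with the highest ratios. The windows are from RefSeq on GRCh38.p14, from 250 bases before to 50 after an annotated start, read 5′ to 3′ on the strand of the gene. They are at chr17:38752491-38752790 (plus strand) for PSMB3, chr11:47426390-47426689 (minus strand) for PSMC3 and chr17:42833147-42833446 (plus strand) for PSME3. Capitals mark matches on either strand to TGACNNNGC (the core of the antioxidant response element), CACGTG (the E-box) and CCAAT, and the marked matches do not overlap one another.
PSMB3: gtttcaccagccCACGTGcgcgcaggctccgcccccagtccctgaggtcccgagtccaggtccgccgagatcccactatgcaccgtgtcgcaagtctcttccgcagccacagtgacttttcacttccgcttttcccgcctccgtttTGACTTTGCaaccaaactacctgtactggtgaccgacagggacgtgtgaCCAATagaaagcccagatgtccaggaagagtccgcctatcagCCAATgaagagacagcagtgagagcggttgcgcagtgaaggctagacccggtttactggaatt
PSMC3: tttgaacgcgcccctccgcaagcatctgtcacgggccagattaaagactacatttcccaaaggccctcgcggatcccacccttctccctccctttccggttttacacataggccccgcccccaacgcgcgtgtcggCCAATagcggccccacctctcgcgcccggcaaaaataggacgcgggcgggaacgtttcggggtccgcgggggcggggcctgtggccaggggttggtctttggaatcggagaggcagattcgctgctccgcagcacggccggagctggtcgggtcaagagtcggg
PSME3: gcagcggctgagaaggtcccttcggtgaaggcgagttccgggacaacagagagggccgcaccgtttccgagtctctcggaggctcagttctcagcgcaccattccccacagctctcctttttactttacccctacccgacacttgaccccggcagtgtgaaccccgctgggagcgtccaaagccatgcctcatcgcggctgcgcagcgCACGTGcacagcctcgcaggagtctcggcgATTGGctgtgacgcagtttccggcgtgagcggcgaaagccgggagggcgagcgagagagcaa

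The PSMB3 window held all 3 motifs, with the E-box at -238, the response element core at -104 and CCAAT at -55 and -13 from the start. In the PSMC3 window only CCAAT matched, at -114. PSME3 had an E-box at -42 and, on the other strand, CCAAT at -12. Of the 91 members, 68 had a window in the RefSeq table, and some had more than 1, giving 95. The response element core was present in 15.8% of these 95 windows, against 13.8% of 22199 windows of protein-coding genes. In the windows of proteasome genes alone it was in 2 of 17 (11.8%), which is not above that share. CCAAT was found in 8 of the 17 windows of proteasome genes (47.1%), against 34.7% for protein-coding genes and 32.6% for all members. All 3 windows shown hold it, so they do not stand for the class. PSMB8, with the highest ratio of the expressed proteasome genes, had none of the 3 motifs in its windows. The E-box stood in 2 of the 17 (11.8%), and in 8.3% for protein-coding genes. A match is a description of these letters, not a bound site.

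The deposited files held FPKM, fragments scaled by gene length and by the library total, for 13342 genes in Control and 13351 in AG, 10548 of them in both. Totals of 16240451 and 14857372 fragments were recovered from the steps between values. The label was set against marker genes. Of 12 markers of B cell precursors, 8 were listed in Control and 4 in AG, with summed levels of 2.80 and 2.84 FPKM. Those listed in Control only had from 0.00624 (MME) to 0.137 FPKM (IGLL1), and a marker without a value was not read as absent. Of 12 markers of monocytes and granulocytes, 7 were listed in both libraries, with summed levels of 952 and 497 FPKM. CTSG, a granule protease, had 743 and 194 of these, while the other 6 summed to 209 and 303 FPKM and the median log2 difference of the 7 was 0.28. Of the 7, 2 were past 1.5-fold upward in AG and 2 downward. None of 5 T cell markers was listed, and 1 of 5 erythroid markers was, in Control only, at 0.0472 FPKM. These data therefore did not bear out the lineage label in either library, and the part of the shift in myeloid genes in any difference below was not tested. In bulk RNA, fewer cells of a type and less RNA per cell cannot be told apart.

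The expressed ubiquitin and proteasome genes differed little between Control and AG, and the larger ratios came from members of low level. Among the 91 members, 87 were listed in both libraries, 4 in Control only and 0 in AG only, where 7.60% and 8.53% of 7653 listed protein-coding genes were in Control only and AG only. Of the 87, 70 had a mean of at least 1 FPKM and are called expressed. On the log2 scale of FPKM plus 1, 0 of these 70 reached 1.5-fold above Control in AG and 0 reached it below. The same thresholds were passed upward by 3.60% and downward by 3.33% of 5528 expressed genes, and by 2.45% and 1.33% of the 4442 that code for protein. With so few genes past the threshold anywhere, 0 of 70 is near the background. With 0.1 FPKM added instead of 1, 0 members were higher and 2 were lower, against 3.42% and 2.84% of expressed protein-coding genes. At 1.25-fold, a threshold added after the values were seen, 2 of 70 members lay outside (2.86%), FBXW9 and USP41, both lower in AG. The background at that threshold was 12.9% of expressed protein-coding genes. All 43 members with a mean of at least 5 FPKM lay within 1.25-fold, where 10.6% of 2890 protein-coding genes at that level lay outside. The SD of the log2 difference over members was 0.14, and over expressed protein-coding genes it was 0.28. At a mean of at least 5 FPKM these SDs were 0.10 and 0.26.

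**Figure D1:**
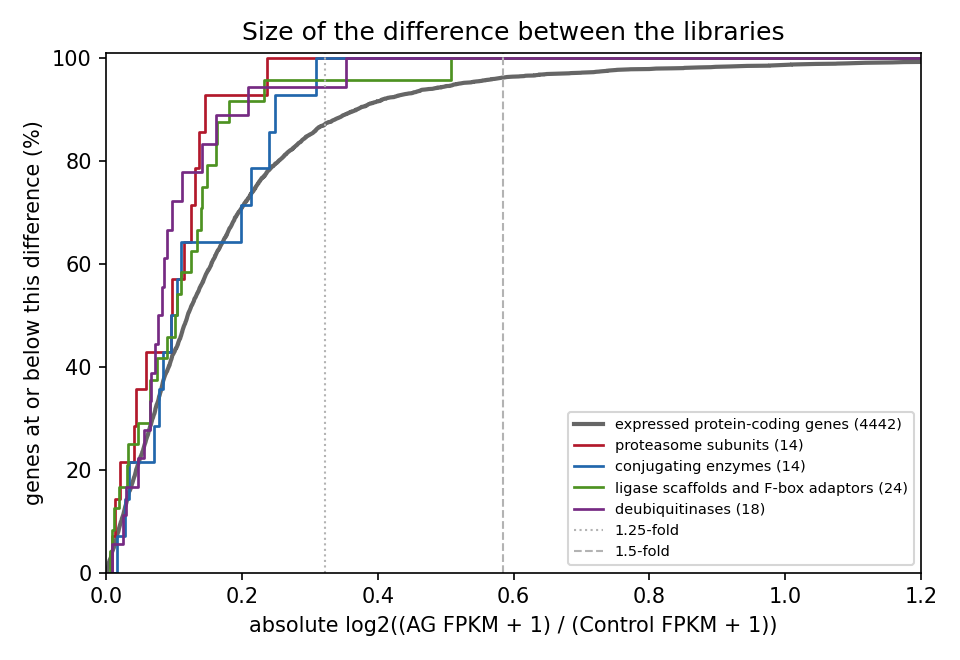
Share of genes at or below a given size of difference (vertical axis, percent) against the absolute log2((AG FPKM + 1)/(Control FPKM + 1)) (horizontal axis), for the 4 classes of expressed members and for 4442 expressed protein-coding genes; vertical lines mark 1.25-fold and 1.5-fold. All 4 class curves reach 100% before the 1.5-fold line, while the grey curve of protein-coding genes does not.

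The centre of the members did not stand apart from that of other genes. Their median log2 difference was -0.03, with 27 members above 0 and 43 below, and the median over expressed protein-coding genes was also -0.03. An exact 95% interval of the plain ratio of AG to Control FPKM, from the fragments behind each value, covers counting error only and not the spread between cultures. It lay wholly above 1 for 11 of 70 members (15.7%), against 19.6% of expressed protein-coding genes. It lay wholly below 1 for 14 (20%), against 25.9%. These shares were not higher among the members than in the background in either direction.

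**Figure D2:**
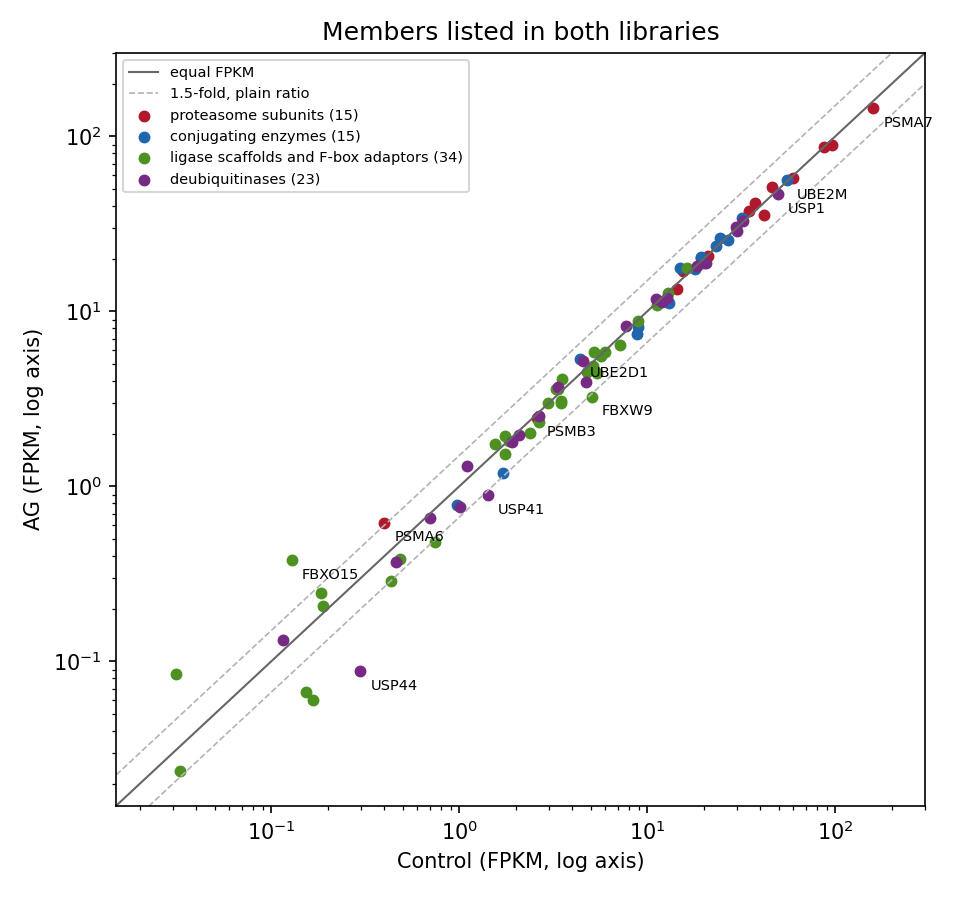
FPKM in AG (vertical, log axis) against FPKM in Control (horizontal, log axis) for the 87 members listed in both libraries, coloured by class; the solid line marks equal FPKM and the dashed lines 1.5-fold by plain ratio. Points above 10 FPKM lie close to the solid line, and those beyond the dashed lines are FBXW9 and genes of lower level, down to the USP44 point at 0.298 and 0.0877 FPKM.

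The 4 classes differed in level more than in their difference between libraries. The 14 expressed proteasome genes were the most abundant, with medians of 36.3 FPKM in Control and 36.5 in AG and summed levels of 648 and 630. The 14 conjugating enzymes had medians of 18.6 and 18.4 FPKM and sums of 271 and 274. The 18 genes with USP names had medians of 9.43 and 9.78 FPKM and sums of 246 and 241. Lowest were the 24 ligase scaffold and F-box genes, at 4.15 and 3.87 FPKM, below the median of 7.96 and 7.94 for expressed protein-coding genes. The sums in AG were 0.973 times those in Control for the proteasome, 1.01 times for the conjugating enzymes, 0.975 times for the ligase genes and 0.979 times for the USP genes. Median log2 differences were -0.02, -0.01, -0.03 and -0.05 in that order, and no difference between classes was tested.

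Core proteasome subunits showed small differences of both signs. PSMA7, an alpha subunit, was the most abundant member, at 159 (Control) and 145 FPKM (AG), with a ratio of 0.913 (95% counting interval 0.874 to 0.953). It is at chr20:62136735-62143440 on the minus strand (GRCh38, GENCODE 29), and its level exceeded that of 98.6% of expressed genes in Control and 98.4% in AG. PSMA6, the other alpha subunit listed, had only 0.398 and 0.621 FPKM, from 42 and 60 fragments, and was below the filter. Its ratio was 1.56 (1.04 to 2.38), and 15.3% of the 50-base windows of its transcripts also occurred in other genes. The remaining 6 of 8 alpha genes were not analysed here.

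Of 7 constitutive beta genes, 5 were expressed. PSMB5, the chymotrypsin-like catalytic subunit, stood at 59.8 (Control) and 58.1 FPKM (AG), a ratio of 0.972 (0.902 to 1.05). PSMB6, the caspase-like catalytic subunit at chr17:4796144-4798503 on the plus strand, had 41.9 and 35.4 FPKM, a ratio of 0.846 (0.768 to 0.930). That was the lowest ratio of the expressed proteasome genes. Among the structural beta subunits, PSMB1 had 87.4 and 86.9 FPKM, a ratio of 0.994 (0.945 to 1.05). PSMB2 had 35.0 and 37.6 FPKM, a ratio of 1.07 (1.01 to 1.13). PSMB3 had only 2.58 and 2.48 FPKM, from 49 and 43 fragments, a ratio of 0.959 (0.622 to 1.48). Core subunits enter the particle in equal copy number, yet their listed levels spanned the range from PSMA6 to PSMA7 in both libraries. By windows shared with other genes, PSMA6 had 15.3% and PSMA7, PSMB1 and PSMB3 had 0.0%, and the part of shared sequence in these levels was not tested.

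PSMB8, which replaces PSMB5 in the immunoproteasome that interferon induces, was the only inducible beta gene listed. It stood at 37.5 (Control) and 41.6 FPKM (AG), and its ratio of 1.11 (1.04 to 1.18) was the highest of the expressed proteasome genes. Both libraries therefore held the inducible subunit at a level of the same order as the constitutive one. PSMB8 is at chr6:32840717-32844703 on the minus strand, and 18.2% of its windows were shared with its antisense gene PSMB8-AS1. Reads of a gene and its antisense partner cannot be told apart here, since the strand setting of the counting is not given.

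In the ATPase ring, PSMC3 stood at 96.9 (Control) and 89.4 FPKM (AG), a ratio of 0.923 (0.879 to 0.969). PSMC6 had 14.4 and 13.5 FPKM, with a ratio of 0.932 (0.869 to 0.999). PSMC5 had 19.4 and 20.2 FPKM, with a ratio of 1.04 (0.966 to 1.13). The ring therefore held ratios on either side of 1. PSMC1, the fourth ATPase listed, had 11.7 FPKM in Control and no value in AG. Genes without a value were not set to 0, so PSMC1 was not compared, and 84.9% of its windows also occur in other genes, most of them in the neighbouring NRDE2.

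Only 2 of 11 non-ATPase subunits were listed, both of the lid. PSMD11, whose abundance is known to limit particle assembly in stem cells, stood at 15.5 (Control) and 17.0 FPKM (AG), a ratio of 1.10 (1.03 to 1.17). PSMD6 had 11.6 and 11.5 FPKM, a ratio of 0.99 (0.924 to 1.06). Beside the lid, PSMD10 encodes gankyrin, a chaperone of ATPase assembly, and had 21.2 and 20.9 FPKM, a ratio of 0.985 (0.891 to 1.09). PSME3, the nuclear activator that opens the core without ubiquitin, had 46.4 and 51.1 FPKM, a ratio of 1.10 (1.05 to 1.15). PSMB8, PSME3, PSMD11 and PSMB2 were the 4 proteasome genes with a counting interval above 1. PSMA7, PSMB6, PSMC3 and PSMC6 were the 4 with one below 1. Each set is 28.6% of 14, against 19.6% above and 25.9% below for expressed protein-coding genes. At a mean of at least 5 FPKM these background shares were 22.8% and 28.7%. With 14 genes the counts are near the background and are not read as a trait of the proteasome.

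**Figure D3:**
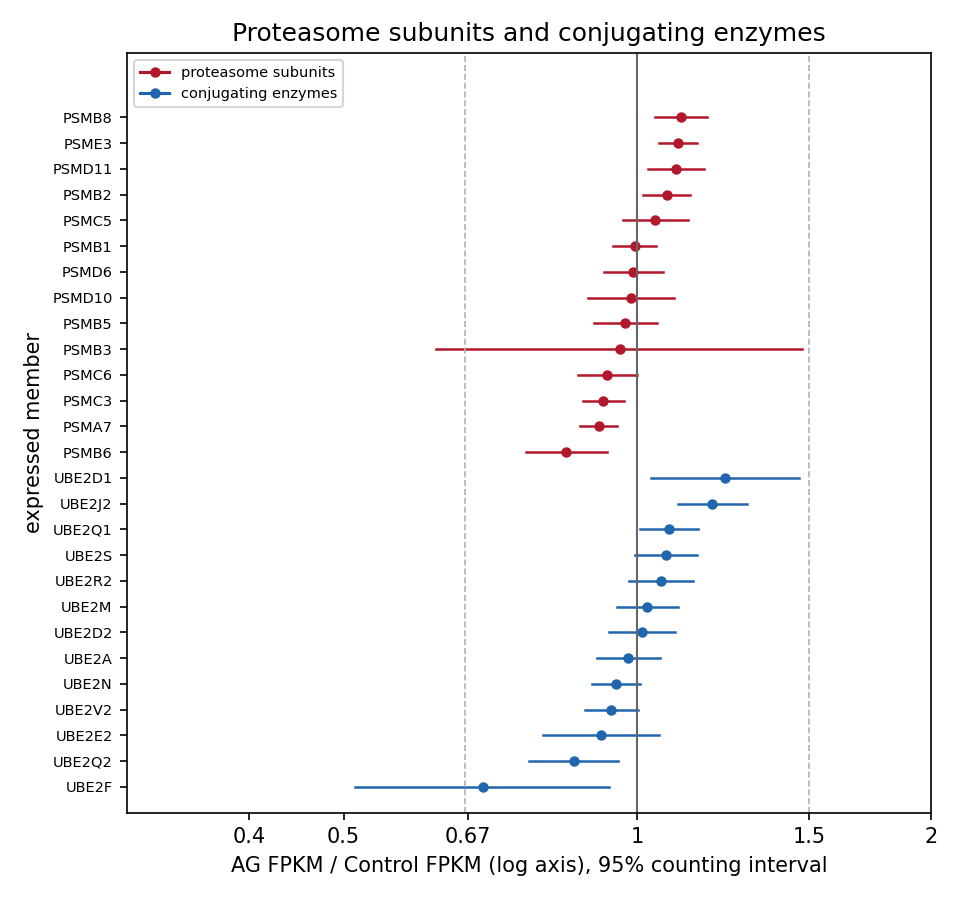
Ratio of AG to Control FPKM (horizontal, log axis) with its exact 95% counting interval for the 14 expressed proteasome subunits and 13 of the 14 expressed conjugating enzymes (1 is not reported here), each class sorted by ratio; the solid line marks 1 and the dashed lines 1.5-fold. Ratios run from 0.846 (PSMB6) to 1.11 (PSMB8) for the proteasome and from 0.695 (UBE2F) to 1.23 (UBE2D1) for the conjugating enzymes, and the wide interval of PSMB3 rests on 49 and 43 fragments.

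Among the conjugating enzymes, 3 had a counting interval above 1 and 3 below. These are 21.4% of 14 each way, near the 19.6% and 25.9% of expressed protein-coding genes. UBE2D1, a broadly acting enzyme that serves many ligases, stood at 4.37 (Control) and 5.38 FPKM (AG), the highest ratio of the class at 1.23 (1.03 to 1.47). UBE2J2, anchored in the endoplasmic reticulum membrane where misfolded proteins are tagged, had 14.9 and 17.8 FPKM, a ratio of 1.19 (1.10 to 1.3). UBE2Q1 had 24.5 and 26.4 FPKM, a ratio of 1.08 (1.01 to 1.16). Its paralogue UBE2Q2 went the other way, at 13.0 and 11.2 FPKM, with a ratio of 0.861 (0.775 to 0.956). The intervals of these paralogues do not overlap, but both were named for lying among the 3 highest or 3 lowest of the class. Their contrast partly follows from that choice and concerns these 2 libraries only.

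The enzymes that carry NEDD8, a ubiquitin-like protein that activates cullins, lay apart in level and in ratio. UBE2F was named for its low ratio and UBE2M for its high level, so this partly follows from that choice. UBE2F, which passes NEDD8 to a single cullin, stood at 1.71 (Control) and 1.19 FPKM (AG), from 118 and 75 fragments, and its ratio of 0.695 (0.513 to 0.936) was the lowest of the class. UBE2M, which passes NEDD8 to the other cullins, was the most abundant E2 gene, at 55.3 and 56.6 FPKM with a ratio of 1.02 (0.953 to 1.10). For UBE2F, 12.3% of the windows were shared with the readthrough gene UBE2F-SCLY, which was listed in Control only at 0.0193 FPKM.

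The other abundant E2 genes had intervals that included 1. UBE2S, which extends ubiquitin chains for the anaphase-promoting complex in mitosis, stood at 32.1 (Control) and 34.4 FPKM (AG), a ratio of 1.07 (0.994 to 1.15). UBE2N, which builds signalling chains together with a UBE2V partner, had 26.8 and 25.5 FPKM, a ratio of 0.951 (0.898 to 1.01). A large part of its transcript, 39.6% of windows, is shared with other genes, mainly NUDT4. UBE2V2, a partner without a catalytic cysteine, chosen here after its values were seen, had 20.1 and 18.9 FPKM, a ratio of 0.941 (0.884 to 1.00).

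The ligase genes were dominated by F-box adaptors. CUL4B, scaffold of a ligase that acts on chromatin, was the only cullin of 8 listed, with 1.76 FPKM in Control and 1.53 in AG and a ratio of 0.870 (0.791 to 0.958). Its values rested on 967 and 770 fragments. The gene length implied by these values was 33815 bases, against 7031 bases of annotated exons, so its level was divided by a length 4.81 times longer. If all these fragments lay on the annotated exons, which was not tested, it would have been 8.47 and 7.37 FPKM. The ratio of CUL4B is not touched by this length, but its rank among the members is.

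FBXW9 had the lowest log2 difference of all expressed members. It stood at 5.07 (Control) and 3.27 FPKM (AG), from 173 and 102 fragments, a log2 difference of -0.51 and a plain ratio of 0.645 (0.50 to 0.828). On the plain ratio it passed 1.5-fold, and on the scale with 1 FPKM added it was 1.42-fold lower. FBXW9 is at chr19:12688053-12696643 on the minus strand, and 18.5% of its windows occur in other genes, 10.6% in GNG14. FBXW11 encodes a beta-TrCP protein that recognises phosphorylated substrates such as the inhibitor of NF-kB. It was the most abundant ligase gene, at 16.4 (Control) and 17.6 FPKM (AG), with a ratio of 1.08 (1.00 to 1.16). FBXW7, the adaptor for MYC and cyclin E and a tumour suppressor in leukaemia, chosen after its values were seen, had 2.956 and 3.004 FPKM, a ratio of 1.02 (0.897 to 1.15). With FBXW9 lowest in the class and FBXW11 near 1, the FBXW genes lay on either side of 0, and their median log2 difference over 6 genes was 0.05.

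FBXL genes had a median log2 difference of -0.03 over 7 expressed genes. FBXL15 had the highest ratio of all expressed ligase genes, 1.17 (0.924 to 1.48), at 3.54 (Control) and 4.14 FPKM (AG). FBXL4, linked to mitochondrial maintenance, had 3.48 and 3.001 FPKM, a ratio of 0.862 (0.749 to 0.992). FBXL12 was the most abundant, at 12.9 and 12.8 FPKM, with a ratio of 0.991 (0.882 to 1.11). The 7 genes therefore lay on either side of 1, and the interval of the highest one included 1.

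FBXO genes had a median of -0.06 over 10 expressed genes. FBXO30 stood at 5.19 (Control) and 5.86 FPKM (AG), a ratio of 1.13 (1.02 to 1.25). FBXO31, which acts on cyclin D after DNA damage, had 1.55 and 1.75 FPKM, a ratio of 1.13 (0.913 to 1.40). FBXO8 had 5.43 and 4.47 FPKM, a ratio of 0.824 (0.661 to 1.03). Of these 3, only FBXO30 had an interval that left out 1. Over the 24 expressed ligase genes the interval lay above 1 for 2 (8.33%) and below 1 for 4 (16.7%). Neither share was above the 19.6% and 25.9% of expressed protein-coding genes. FBXO9, an abundant adaptor, had 11.3 and 11.0 FPKM, a ratio of 0.966 (0.897 to 1.04).

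**Figure D4:**
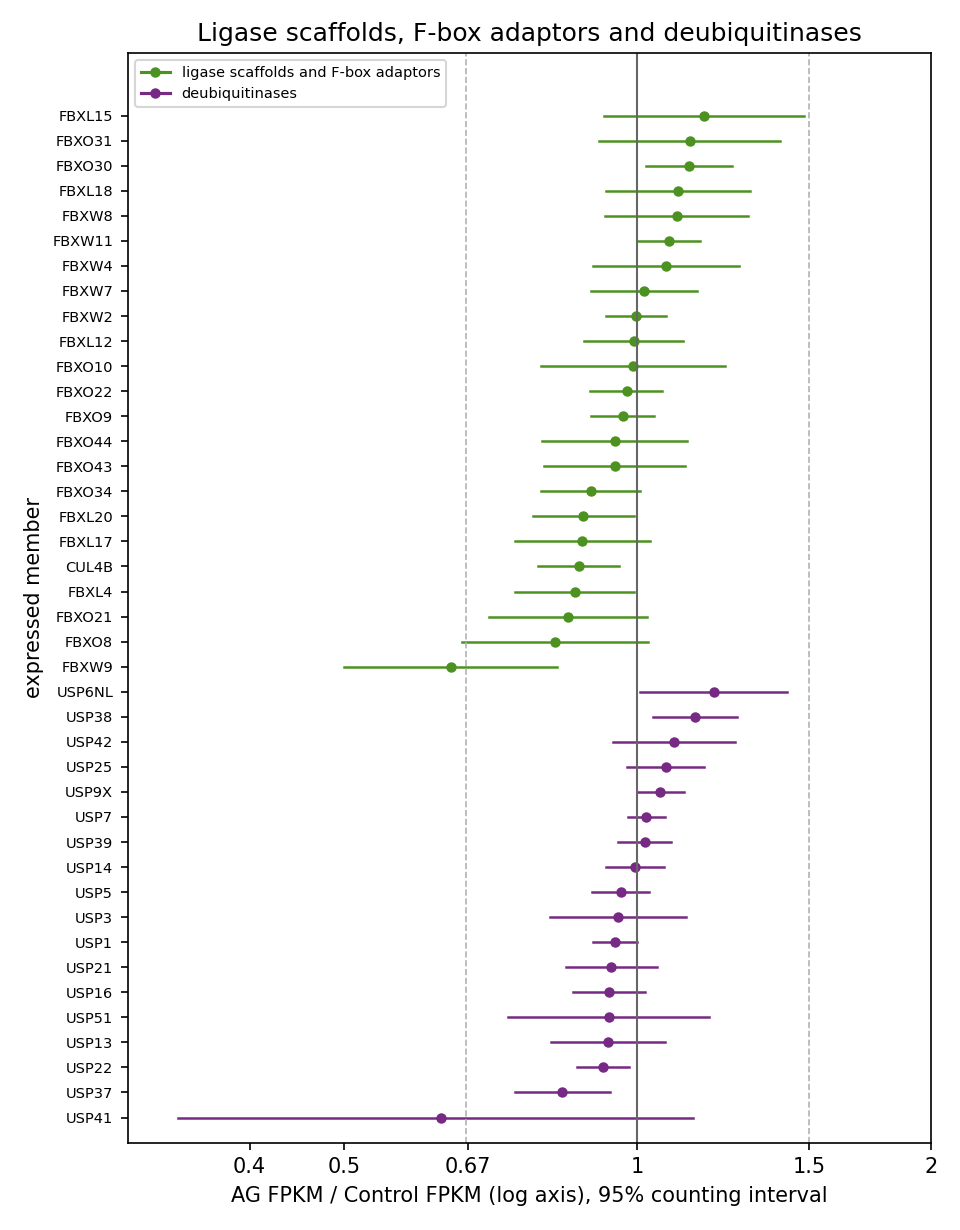
Ratio of AG to Control FPKM (horizontal, log axis) with its exact 95% counting interval for 23 of the 24 expressed ligase scaffold and F-box genes (1 is not reported here) and the 18 expressed USP genes (class name deubiquitinases), each class sorted by ratio; the solid line marks 1 and the dashed lines 1.5-fold. FBXW9 at 0.645 and USP41 at 0.629 are the 2 points beyond the lower dashed line, and no point lies beyond the upper one.

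The abundant USP genes named here had ratios from 0.922 (USP22) to 1.02 (USP7). USP1, which acts on the DNA repair proteins FANCD2 and PCNA, was the highest, at 49.6 (Control) and 47.0 FPKM (AG), with a ratio of 0.947 (0.90 to 0.998). USP39, a splicing factor that lacks deubiquitinase activity despite its name, had 32.4 and 33.0 FPKM, a ratio of 1.02 (0.956 to 1.08). USP7, which protects MDM2 and p53, had 29.7 and 30.3 FPKM, a ratio of 1.02 (0.977 to 1.07). Of USP1, USP39 and USP7, only USP1 had an interval that left out 1, and its upper bound was close to 1. USP14, which sits on the proteasome and trims chains there, was chosen after its values were seen and had 18.3 and 18.2 FPKM, a ratio of 0.994 (0.929 to 1.06). USP22, the deubiquitinase of the SAGA coactivator complex, had 20.6 and 19.01 FPKM, a ratio of 0.922 (0.867 to 0.980). Its interval also left out 1.

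Larger ratios came from USP genes of lower level. USP38 stood at 4.53 (Control) and 5.19 FPKM (AG), a ratio of 1.15 (1.04 to 1.27), and was the USP gene with the highest log2 difference, 0.16. USP37, a cell cycle deubiquitinase that stabilises cyclin A, had 4.74 and 3.98 FPKM, a ratio of 0.838 (0.748 to 0.938). USP42 had 3.38 and 3.68 FPKM, a ratio of 1.09 (0.945 to 1.26). The interval left out 1 for USP38 and USP37, in opposite directions. Over the 18 expressed USP genes it lay above 1 for 2 (11.1%) and below 1 for 3 (16.7%). Among expressed protein-coding genes these shares were 19.6% and 25.9%, so neither share was above the background. USP6NL, a GTPase-activating protein that entered by its name and is no deubiquitinase, had 1.10 and 1.31 FPKM, a ratio of 1.2 (1.01 to 1.43). USP41 had 1.42 and 0.891 FPKM from 33 and 19 fragments, and its ratio of 0.629 had a wide interval, 0.338 to 1.14. It lies at chr22:20350578-20390758 on the minus strand and shares 40.7% of its windows with other genes, 31.1% with its near copy USP18.

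Members below the filter gave the extreme ratios. By plain ratio without a filter, which was added after the values were seen, in AG 3 of 87 members were higher by 1.5-fold or more and 7 lower. By the same rule 9.10% of 6418 protein-coding genes were higher and 9.77% lower, so neither count of members was above the background share. For 2 of the 3 and 3 of the 7 the counting interval left out 1. The following were chosen after their values were seen. FBXO15, an F-box gene known from embryonic stem cells, stood at 0.129 (Control) and 0.379 FPKM (AG), from 13 and 35 fragments, a ratio of 2.94 (1.52 to 6.06). USP44, which acts on the spindle checkpoint, had 0.298 and 0.0877 FPKM, from 26 and 7 fragments, a ratio of 0.294 (0.108 to 0.696). FBXO25 had 0.743 and 0.483 FPKM, from 138 and 82 fragments, a ratio of 0.650 (0.488 to 0.860). These levels are under 1 FPKM in both libraries. Besides PSMC1, UBE2F-SCLY and FBXW10 (0.0281 FPKM) were listed in Control only, as was 1 Y-linked member.

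Genes that work with these enzymes were taken from 6 lists of known pathway components. In the 5 lists with expressed genes 0 were 1.5-fold higher and 0 lower. For lists this small that is near the background of 2.45% and 1.33% of expressed protein-coding genes. Proteasome assembly factors and accessory proteins, 7 expressed of 13, had a median log2 difference of 0.03. Ubiquitin genes and E1 enzymes, 4 expressed of 6, had a median of -0.09. In this list UBB, a polyubiquitin gene, had 132 and 123 FPKM, a ratio of 0.936 (0.890 to 0.984). The NEDD8 cycle and the signalosome that removes NEDD8, 8 expressed of 20, had a median of -0.08. Cullin partners, 4 expressed of 13, had the lowest median, -0.21. Of these, SKP2, the F-box protein for the cell cycle inhibitor p27, had 18.1 and 15.3 FPKM, with a ratio of 0.843 (0.809 to 0.879). ELOB, a subunit of elongin ligases, had 68.2 and 57.8 FPKM, a ratio of 0.848 (0.778 to 0.923). BTRC, a beta-TrCP protein of the same list, went the other way, at 2.30 and 2.71 FPKM, a ratio of 1.18 (0.986 to 1.41). Regulators and the VCP segregase, 5 expressed of 7, had a median of 0.05. In this list NFE2L2 had 15.8 and 12.2 FPKM, a ratio of 0.774 (0.713 to 0.838), while its relative NFE2L1 had 24.3 and 25.5 FPKM, a ratio of 1.05 (0.992 to 1.12). Of 10 other deubiquitinases, 2 were listed, both below the filter. The rest had no value in either library, which was not read as absence. The genes named from these lists were chosen after their values were seen.

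Precision set what could be told. Of the 70 expressed members, 67 had at least 100 fragments in both libraries, and Control fragments ranged from 33 to 4517 and AG fragments from 19 to 3916. Exons of 32 of the 70 overlapped another annotated gene, and 59 members shared under 5% of their windows with other genes. Another 9 shared at least 25%, among them UBE2N, USP37, USP41 and PSMC1. For these the split of reads between genes is uncertain.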

How the data were processed

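RNA-seq values were available for 1 Control and 1 AG library of HAL-01 cells. The authors deposited FPKM per gene. Per the labels' protocols, RNA was extracted with Trizol and sequenced from stranded TruSeq mRNA libraries. Per the submitters' processing notes, which give no versions, the tools were Trimmomatic, HISAT2, Cufflinks and HTSeq and the build hg38. In the sources used here, annotation release, strand setting and filters are not given. FPKM is relative to the library total, so a few abundant genes can shift all others.

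Ensembl IDs were matched to GENCODE 29 (97.1% of 16145). For genes with 1 transcript, FPKM times exon length and a common factor came within 0.01 of a whole number of fragments in 88.4% of 5315 (Control) and 88.1% of 5259 (AG) such genes, which fixed both totals. For each gene the pair of whole fragment numbers at 1 shared length was then found within 1e-05, nearest to the annotated length. A pair was found for 87 of 87 members and for 99.8% of expressed genes. From it came an exact 95% Clopper-Pearson interval of the ratio. Fragments are not independent molecules, and the intervals cover counting error only and were not adjusted for the number of genes. No count model was fitted.

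Expressed genes had a value in both libraries and a mean of at least 1 FPKM. Differences are log2((AG FPKM + 1)/(Control FPKM + 1)), which understates the change of low genes, and 1.5-fold was the threshold. Shared sequence is the percentage of 50-base windows of a gene's transcripts found in transcripts of another gene on either strand. The members, lists, thresholds and alternatives were chosen with earlier results of these data known. Named were all expressed proteasome genes and, in each other class, the 3 highest and 3 lowest log2 differences and the 3 highest levels, though not every gene so chosen is reported here. The settings changed were the pseudocount (0.1 and 5 FPKM), the filter, the scaling (2 others) and leaving out overlapping genes. Software was scipy 1.17.1, numpy 2.4.6 and pandas 2.3.3 under Python 3.11.15, with figures by matplotlib 3.10.9, and the steps were tested on simulated data.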

Additional observations from a re-analysis of the deposited data

Results flagged for a closer look

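PSMC1, an ATPase of the proteasome's regulatory particle, was listed in Control at 11.7 FPKM and had no value in AG. This was a signal in a value that the comparison did not use. A count of 0 would allow up to 3 fragments, or 0.0300 FPKM in Control and 0.0328 FPKM in AG, for a gene of its length, but a gene without a value was not read as 0. Its neighbour in function, the ATPase PSMC3, was listed in both libraries. The reads of PSMC1 and of NRDE2, which holds 71.9% of its windows, were not separated here, and the part of this overlap in the missing value was not tested.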

How the results depend on the processing

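Counts were compared within 1.5 times of the first count, and class medians within the counting half-width of a single gene of the class (0.098 to 0.22 on the log2 scale), a wide tolerance for a median. The count of members at least 1.5-fold lower was 2 with a pseudocount of 0.1 FPKM, against 0 with 1 FPKM, because the smaller pseudocount leaves the ratios of FBXW9 and USP41 nearer to their plain values. At 1.25-fold it was also 2. By plain ratio without a filter, over 87 members, it was 7 lower and 3 higher, against 9.77% and 9.10% of protein-coding genes. Both of these last settings were chosen after seeing the data. The median log2 difference ranged from -0.04 to 0.02 for the proteasome, from -0.03 to 0.03 for the conjugating enzymes, from -0.06 to 0.00 for the ligase genes and from -0.06 to -0.02 for the USP genes. The first 2 medians changed sign, to 0.017 and 0.028 when scaled by the median ratio, and no class median is read as a direction. The scalings moved all genes by 0.008 and 0.036 on the log2 scale. For the 41 named members, 164 values under alternatives moved by less than their counting error, the largest move being 0.26 (USP41, pseudocount of 0.1 FPKM), and FBXL12, PSMB1, PSMD10 and PSMD6, all near 0, changed sign in some setting. No paired analysis was possible because each group has 1 library, and no replicate could be left out. Depth limits PSMB3, UBE2F, FBXW9 and USP41 most, and the spread between cultures is unknown.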
